A study of Drosophila melanogaster with 19 samples.

Results

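The transcripts described here are 57 of the 12013 transcripts with a gene symbol in the deposited tables of ovarian somatic cells (OSC), a Drosophila line derived from follicle cells. They were taken from the 238 transcripts that the authors' tables class as High in piRNA level. A transcript was chosen where its Armi iCLIP signal after Yb knockdown (KD) was lower than after control KD by a log2 ratio of −1.5 or less, with 1 RPM (reads per 1e6 reads) added to both values. Transcripts on the fourth chromosome and on heterochromatic or unplaced scaffolds were left out, as were tj, brat, Patr-1 and l(2)gl, which left 224 High transcripts, of which the 57 lay below the threshold and 167 above it; these 167 are called the other High transcripts. The members were thus selected on the Yb KD and control KD columns of Armi iCLIP and, through the class, on the untreated Piwi library, so those values are descriptions.

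PIWI-interacting RNAs (piRNAs) are small RNAs that guide Piwi to transposons, and in follicle cells they are cut from long single-stranded precursors. Most precursors come from transposon-rich clusters, but some mRNAs also give piRNAs, largely from their 3′ untranslated regions. Yb, a Tudor-domain protein encoded by fs(1)Yb, gathers precursors in perinuclear Yb bodies, the helicase Armitage (Armi) binds them, and the endonuclease Zucchini (Zuc) on the outer mitochondrial membrane cuts them.

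All samples were OSC. RNA bound to Armi was read by CLIPPARE, which ligates an adapter to the 5′ ends of bound RNA, after Zuc RNAi and after EGFP RNAi as the control (2 libraries each). Small RNA bound to Piwi was sequenced after Yb RNAi, after EGFP RNAi and in untreated cells (1 library each). Crosslinked RNA of Myc-tagged Armi was read by iCLIP in cells transfected with Myc-Armi-D862A, Myc-Armi-R949A or wild-type (WT) Myc-Armi, and that of endogenous Armi after Yb RNAi, after EGFP RNAi and in untreated cells. The labels list 2 libraries for each of these iCLIP conditions, but only the untreated ones have a column per library, and for the others the authors deposited 1 column. Transfected cells may still carry their own Armi, which the anti-Myc antibody does not target. For the Piwi library called Yb KD here, the title and the column header name Yb while the genotype label gives EGFP RNAi. The antibody field of the Piwi knockdown samples says anti-Myc, while their protocol describes anti-Piwi. The direction of the Piwi comparison follows the title and the header, and every sign in it would turn if the 2 libraries were exchanged.

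Columns held 0.813 to 10.4 M reads (M, 1e6), as implied by the step of their RPM values, and the tables hold 12.8 to 63.8% of them. That percentage was 54.7% in Piwi Yb KD against 18.6% in control KD, and 63.3% in D862A and 63.8% in R949A against 33.2% in WT, so most transcripts have more RPM in Yb KD, D862A and R949A. In the untreated Piwi library, whose labels do not conflict, it was 14.6%, counted over 13929 transcripts where the Piwi knockdown columns have 12013. That value was nearer to control KD than to Yb KD. Values are therefore also given as shares of the table's own reads or relative to the median of all transcripts that average 5 RPM or more in the 2 groups compared. As these are bulk libraries, fewer cells with a transcript and less of it per cell cannot be told apart, and total RNA was not analysed here, so less binding and less transcript cannot be told apart either. Of 7 follicle and ovarian somatic markers 6 were above 0 in both untreated Armi libraries, led by tj. Of 11 germline markers 10 were in the tables, with a summed 148 to 150 RPM there, most of it from aret, and osk was at 0 in 1 of these libraries.

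The signal of the targeted genes themselves was as follows. On fs(1)Yb, Armi iCLIP had 23.8 RPM in Yb KD and 269 RPM in control KD, while Piwi small RNA had 44.5 RPM in Yb KD and 29.5 RPM in control KD. On zuc, CLIPPARE had 0.343 and 2.10 RPM in Zuc KD, against 1.15 and 3.72 RPM in control KD, where the groups overlap at a few reads. These are bound RNA and not transcript levels, so they check the knockdowns only in part.

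In the columns that chose the transcripts, the log2 ratio of Yb KD to control KD ranged from −3.97 for Invadolysin up to the threshold, with a median of −2.03. Just inside the threshold were CG10077 (21.1 RPM in Yb KD, 63.8 RPM in control KD), Bsg (456 and 1326 RPM) and Tif-IA (125 and 357 RPM). Just outside were Psi (240 and 669 RPM), msi (430 and 1199 RPM) and CG42671 (54.7 and 154 RPM). The threshold thus cuts through a continuous range and does not mark a gap.

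By position, 17 of the 57 genes (29.8%) lie on the X chromosome, against 32 of 167 other High genes (19.2%) and 1927 of all 12013 (16.0%). Chromosome arm 2R holds 3 of the 57 (5.26%), 29 of the other High genes (17.4%) and 20.2% of all. These counts were not tested. The median gene span in the tables was 7.98 kb for the 57 genes, 8.15 kb for the other High genes, 4.53 kb for the 2926 genes with a symbol and at least 5 RPM in untreated Armi iCLIP, and 2.06 kb for all genes. The 57 genes are mostly scattered. The closest neighbours are CG9940 and g, 8.92 kb apart on X, CG33129 and CG16833, 19.0 kb apart on 2L, and Sec16 and Tis11, 49.5 kb apart on X.

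Symbols follow the files. Of the 57 symbols 43 are current in the RefSeq gene list and 13 are synonyms, among them dm (now Myc), CG10289 (fmt), CG33129 (Tmem214), CG32791 (DIP-alpha), CG9940 (Nadsyn), CG17912 (BuGZ), CG13865 (Coa7), CG16833 (TTLL4A) and Gie (Arl8). Sug had no match. By known function 27 of the 57 fall into 5 groups that were drawn up once the members were known. They are phosphoinositide enzymes (5), cytoskeleton (4), membrane traffic and cell surface (8), RNA binding (4) and transcription and growth (6). None of the 57 is on a list of 23 piRNA pathway genes, of which 13 have values here. Of these only tud and armi are in the High class, so the others could not be members.

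In untreated cells the 57 transcripts held 16.0% and 16.3% of table reads in the pair of Armi iCLIP libraries and 19.4% in the Piwi library. The other High transcripts took 22.4% and 22.3% in Armi iCLIP and 31.8% in Piwi. Among the 57, dm, the fly Myc gene and a driver of growth, had the most reads, with 1964 RPM in Piwi small RNA, and 2144 and 1954 RPM in the Armi iCLIP libraries. RPM are not scaled to transcript length, so a higher value is a larger number of reads and not a higher level per base. The next 7 by Armi reads were CG10289 (1627 ± 86.4 RPM, SD, n = 2), Sec16, a scaffold of endoplasmic reticulum exit sites (1347 ± 15.5 RPM), Eip63E, a cyclin-dependent kinase (1221 ± 40.5 RPM), Klp10A, a kinesin that takes microtubules apart (1084 ± 16.8 RPM), Tis11, which binds AU-rich elements of mRNAs (1056 ± 39.7 RPM), mei-P26, a TRIM-NHL protein of the same family as brat (1034 ± 18.4 RPM), and CG33129 (973 ± 17.5 RPM). At the other end CG42259 had 16.3 and 11.6 RPM. The SD between the Armi libraries was 0.412 to 24.3% of the mean, with a median of 5.24%.

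The transcripts differed widely in how much Piwi RNA went with their Armi signal. The median log2 ratio of Piwi to mean Armi was 0.04 for the 57, 0.35 for the other High transcripts and −0.66 for the 3189 transcripts with at least 5 RPM, and the High class is itself set by Piwi RPM. Tis11 had 347 RPM in Piwi against 1056 RPM in Armi iCLIP (log2 ratio −1.60), CG33129 had 339 against 973 RPM (−1.52) and mei-P26 had 433 against 1034 RPM (−1.25). Baldspot, a fatty acid elongase, had 1277 RPM in Piwi against 343 RPM in Armi iCLIP (1.89), CG17912 had 1565 against 494 RPM (1.66) and CG42259 had 140 against 14.0 RPM (3.23). No gene here lacked signal in either assay.

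**Figure D1:**
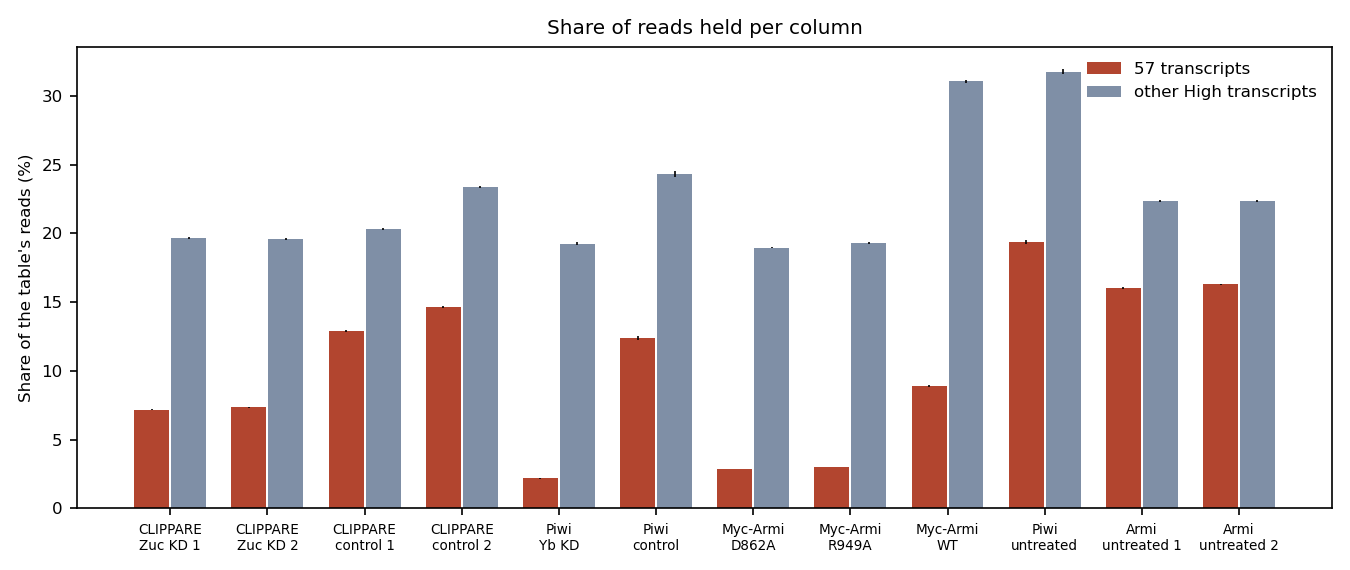
Share of the reads of transcripts with a symbol (%) that fell on the 57 transcripts (red) and on the 167 other High transcripts (grey-blue) in each column, with exact binomial 95% intervals. The 57 held 7.19 and 7.33% in Zuc KD against 12.9 and 14.6% in control KD, and 2.19% in Piwi Yb KD against 12.4% in control KD.

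The first question was whether these transcripts, selected for their response to Yb, also carried fewer Armi-bound 5′ ends when Zuc was knocked down. All 57 had a log2 change below 0 in Zuc KD, as did 104 of the 167 other High transcripts and 30.1% of the 4006 transcripts tested. The 57 took 7.19 and 7.33% of the reads in the Zuc KD libraries against 12.9 and 14.6% in the control KD libraries. The other High transcripts took 19.7 and 19.6% against 20.3 and 23.4%. For 52 of the 57 both Zuc KD libraries lay below both control KD libraries, where 12.9% of all tested did, and for the other 5 (CG31875, CG10947, homer, ras and CG10289) the groups overlapped.

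Among factors of transcription and growth, Tif-IA, an initiation factor of RNA polymerase I, had 166 and 156 RPM in Zuc KD, against 356 and 632 RPM in control KD. Sug, which is in no role group, had 14.1 and 16.3 RPM in Zuc KD, against 29.8 and 68.8 RPM in control KD. Both fell, by 1.55 (SE 0.419, adjusted p 0.00490) and 1.52 (SE 0.333, adjusted p 3.18e-04) on the log2 scale of RPM + 1, by limma's test, with p-values adjusted (Benjamini-Hochberg) over 4006 transcripts. The forkhead factor jumu fell as well (262 and 283 RPM in Zuc KD, against 415 and 999 RPM in control KD). The remaining 4 of the 6 in this group did not pass: dm (520 and 643 RPM in Zuc KD, 808 and 1611 RPM in control KD, adjusted p 0.150), the follicle-cell factor apt (218 and 230 RPM, 302 and 808 RPM, adjusted p 0.0542), msl-1, a subunit of the dosage compensation complex, and ago, the F-box protein that marks Myc and Cyclin E for degradation. In each of these 4 the groups did not overlap, and the 2 control KD libraries were far apart, as they also were for jumu.

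Of the phosphoinositide enzymes 3 of 5 fell, beside 23 of all 57. The counts of the other role groups are to be read against that same share. The phospholipase C gamma sl had 53.3 and 56.2 RPM in Zuc KD, against 102 and 236 RPM in control KD (log2 change −1.49, SE 0.369, limma adjusted p 0.00205). Pi3K21B, the regulatory subunit of phosphoinositide 3-kinase, had 200 and 207 RPM in Zuc KD, against 372 and 784 RPM in control KD (−1.41, SE 0.429, limma adjusted p 0.0142). The phospholipase C beta norpA had 36.2 and 39.4 RPM in Zuc KD, against 55.6 and 132 RPM in control KD (−1.16, limma adjusted p 0.0139). Pis, the phosphatidylinositol synthase (115 and 113 RPM in Zuc KD, 160 and 229 RPM in control KD, limma adjusted p 0.175), and the phosphatase 5PtaseI (90.6 and 73.9 RPM in Zuc KD, 98.7 and 154 RPM in control KD, limma adjusted p 0.273) did not pass.

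Of the 4 RNA-binding proteins, unk and orb2 fell. The zinc finger protein unk had 240 and 243 RPM in Zuc KD, against 599 and 790 RPM in control KD (log2 change −1.51, SE 0.441, limma adjusted p 0.0103), and the CPEB protein orb2 had 29.8 and 28.9 RPM in Zuc KD, against 47.2 and 94.9 RPM in control KD. Tis11 (165 and 211 RPM in Zuc KD, 226 and 600 RPM in control KD, limma adjusted p 0.0885) and mei-P26 (310 and 300 RPM, 415 and 970 RPM, limma adjusted p 0.0867) did not pass. Of the cytoskeletal genes, the microtubule plus-end protein Eb1 (153 and 188 RPM in Zuc KD, 371 and 533 RPM in control KD) and the formin dia (95.2 and 103 RPM, 158 and 275 RPM) fell, and Klp10A and RhoGAP92B did not pass.

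Of the 8 genes placed under membrane traffic and cell surface 3 fell. They were the beta-arrestin krz (121 and 125 RPM in Zuc KD, 256 and 427 RPM in control KD), the dynamin shi (83.7 and 89.1 RPM, 131 and 322 RPM) and the small GTPase Gie. CG32791, which also encodes a cell-surface protein, was placed in no group and fell too. It had 320 and 337 RPM in Zuc KD, against 694 and 1075 RPM in control KD (log2 change −1.39, limma adjusted p 0.0247). Sec16 had 343 and 383 RPM in Zuc KD, against 550 and 547 RPM in control KD (log2 change −0.60, limma adjusted p 0.364). The engulfment receptor drpr had 411 and 385 RPM in Zuc KD, against 416 and 643 RPM in control KD (−0.38, limma adjusted p 0.589). Outside the groups, CG9940 (−1.43) and tun (−1.41) completed the 8 largest falls. The smallest changes were those of ras, which encodes the IMP dehydrogenase of purine synthesis (−0.19, limma adjusted p 0.793), and CG10289, with 1030 and 1131 RPM in Zuc KD against 907 and 1350 RPM in control KD (−0.04, limma adjusted p 0.967).

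In all, 23 of the 57 fell and none rose by limma's test, where 2.77% of the transcripts tested were called lower and 11.8% higher. The median log2 change was −0.96 for the 57, −0.20 for the other High transcripts, of which 12 of 167 fell and 2 rose, and 0.33 for all tested. With each library centred on its median 54 of the 57 fell (14.2% of all), with edgeR's quasi-likelihood test on recovered reads 55 (13.7% of all) and with DESeq2 54 (10.9% of all); CG10289 and ras passed in none of the 3. Among all transcripts 111 were called lower and 471 higher as deposited, and 570 lower and 379 higher with centring. With the replicate number as a block 14 of the 57 fell (2.3% of all). Without Zuc KD replicate 1 limma called 0 of the 57 (2 at an unadjusted p of 0.05) at a median change of −0.89, and without replicate 2 it called 0 (1 at an unadjusted p of 0.05) at −1.03, against −0.96 with all libraries. With centring 16 and 20 were called with the same libraries left out. Without control KD replicate 1 limma called 57 (median −1.46) and without control KD replicate 2 it called 42 (median −0.59).

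The 2 control KD libraries differed by a median log2 of 0.83 over the 57 (replicate 2 higher in 55 of them), by 0.81 over the other High transcripts and by 0.47 over all transcripts tested, while the Zuc KD libraries differed by 0.07 over the 57. The part of this gap in the results was tested only through the settings above. Whether replicates came from separate cultures is not stated in the labels, so the spread between these libraries may be technical. In limma's fit the SE followed the signal level, and a transcript's own replicates had next to no weight in it. Sec16, whose control KD libraries were at 550 and 547 RPM, had an SE of 0.447. Tis11, with control KD libraries at 226 and 600 RPM, had an SE of 0.417. Without the trend these SEs were 0.354 and 0.355. Passing limma's test thus says next to nothing about how close a transcript's own replicates were. Of the 23 pathway genes 13 were in the tables and 8 reached 5 RPM, of which limma called 0 (1 at an unadjusted p of 0.05, Hsp83) and edgeR called 2 lower and 1 higher and DESeq2 2 lower.

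**Figure D2:**
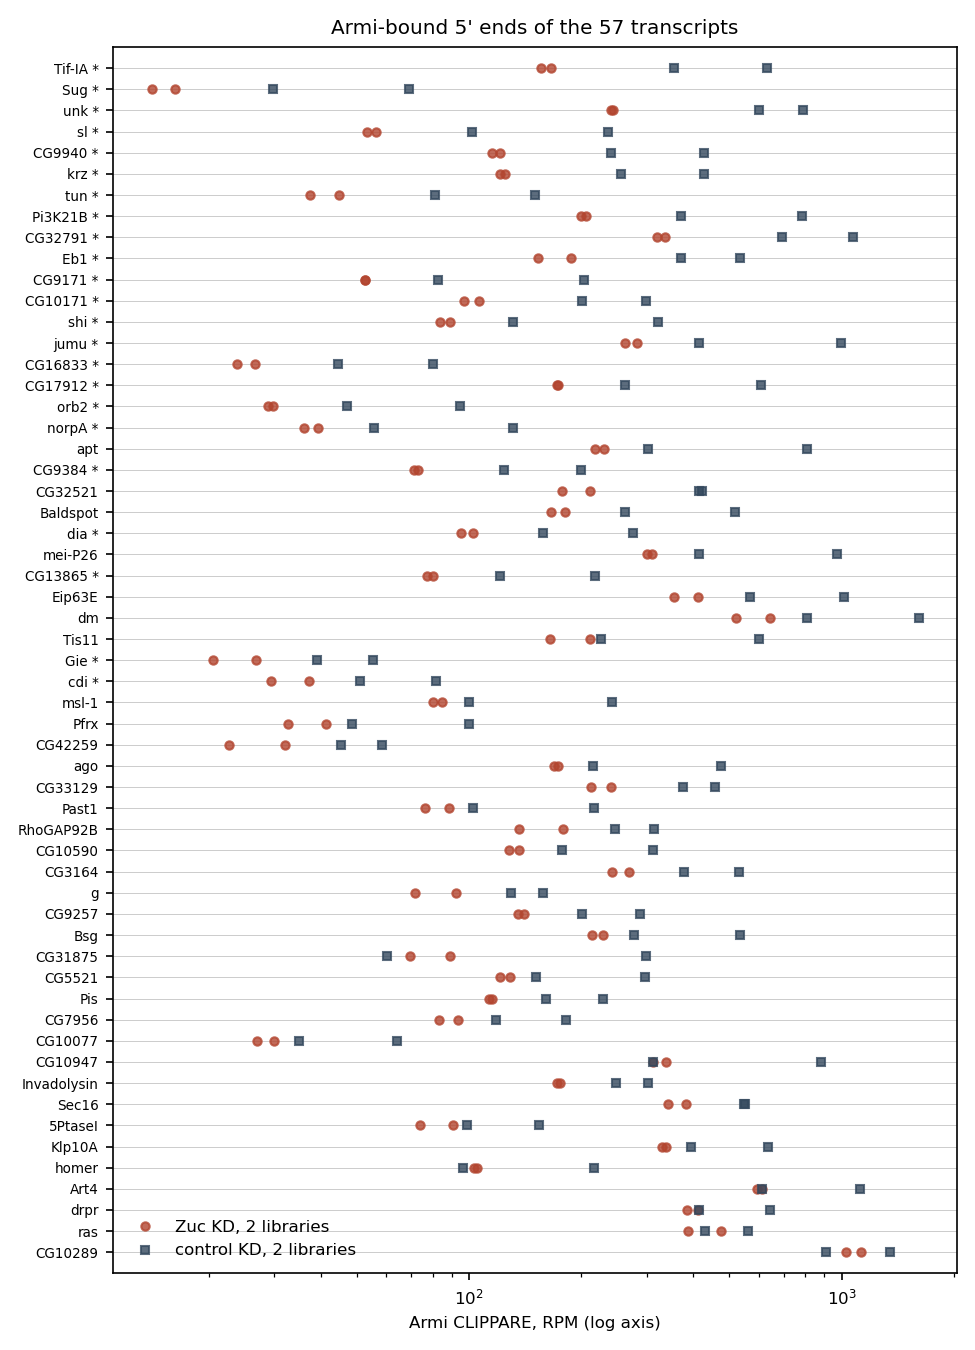
Armi CLIPPARE signal in RPM (log axis) of each of the 57 transcripts in 2 Zuc KD libraries (red circles) and 2 control KD libraries (dark squares), ordered by log2 change with the largest fall on top; a star marks the 23 that passed limma's test at an adjusted p of 0.05. The circles lie left of both squares in 52 rows.

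The Piwi libraries show how far the small RNAs made from these transcripts followed the loss of Armi signal by which they were picked. Piwi-bound reads of the 57 took 2.19% of the table in Yb KD (exact binomial interval 2.15 to 2.24%), against 12.4% in control KD (12.2 to 12.5%), a share 5.65-fold lower. In the untreated Piwi library the 57 held 19.4%, on the side of control KD, although that library also sets the High class. The share of the other High transcripts was 1.26-fold lower (19.3% in Yb KD, 24.3% in control KD). In RPM, 51 of the 57 had less signal in Yb KD and 35 had at least 2-fold less, where 6.44% and 2.23% of 4924 transcripts did. The median log2 ratio was −1.19 for the 57, 0.74 for the other High transcripts and 2.00 for all. Each of the 57 lay at least 2-fold below that last median, as did 98 of the 167 other High transcripts and 18.2% of all transcripts. With 1 library per condition there is no test, and intervals cover counting error only.

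The 6 lowest ratios are given with their intervals. The metalloprotease gene Invadolysin had 19.9 RPM (17 reads) in Yb KD and 202 RPM in control KD, 10.1-fold lower (95% interval 6.14 to 17.8). CG13865 had 28.1 RPM in Yb KD and 235 RPM in control KD, 8.36-fold lower (5.45 to 13.4). CG3164, which encodes an ABC transporter, had 68.0 RPM in Yb KD and 506 RPM in control KD, 7.44-fold lower (5.64 to 9.97). Pis was 5.96-fold lower (3.88 to 9.53), CG9257 5.56-fold lower (3.97 to 7.96) and Art4, an arginine methyltransferase gene, 4.93-fold lower (4.23 to 5.77), with 237 RPM in Yb KD and 1168 RPM in control KD. For all 6 the interval lies wholly above a 3-fold decrease. On plain RPM ratios Tif-IA, 4.94-fold lower, would stand just ahead of Art4.

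The role groups were spread over this range, in which 35 of the 57 had at least 2-fold less Piwi RNA. The groups were drawn up once the members were known, so counts within them depend on which genes were placed in them. CG16833 (TTLL4A), which had the highest ratio of the 57, is in no group. All 4 genes placed in the cytoskeleton group had at least 2-fold less Piwi RNA, from RhoGAP92B (62.1 RPM in Yb KD, 258 RPM in control KD, log2 ratio −2.04) to Klp10A (315 and 706 RPM, −1.16). None of the 4 RNA-binding genes did: mei-P26 had 850 RPM in Yb KD and 731 RPM in control KD, Tis11 395 and 325 RPM, unk 543 and 588 RPM and orb2 52.7 and 59.1 RPM. Of the 5 phosphoinositide enzymes Pis and 5PtaseI (59.8 RPM in Yb KD, 247 RPM in control KD) were at least 2-fold lower. The 3 of that group that fell in Zuc KD stayed closer to control, at 452 and 540 RPM for Pi3K21B, 53.9 and 84.9 RPM for sl and 134 and 151 RPM for norpA.

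Among transcription and growth genes, Tif-IA (82.0 RPM in Yb KD, 405 RPM in control KD), ago (161 and 481 RPM) and jumu (368 and 838 RPM) had at least 2-fold less. The dm transcript was level, at 2918 RPM in Yb KD and 2983 RPM in control KD (ratio 0.978, interval 0.925 to 1.03), and msl-1 had 146 and 121 RPM. Transcripts with more Piwi RNA in Yb KD as deposited were CG16833 (79.7 RPM in Yb KD, 45.5 RPM in control KD, 1.75-fold higher, 1.16 to 2.69), apt (301 and 229 RPM, 1.32-fold higher, 1.09 to 1.60), Tis11, msl-1, mei-P26 and drpr (438 and 437 RPM). The intervals of msl-1 (0.925 to 1.60) and drpr (0.865 to 1.16) include 1. Relative to the table median these 6 also lay below, since that median was 4.01-fold higher. The neighbours CG33129 and CG16833 went opposite ways as deposited: CG33129 had 103 RPM in Yb KD and 369 RPM in control KD.

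**Figure D3:**
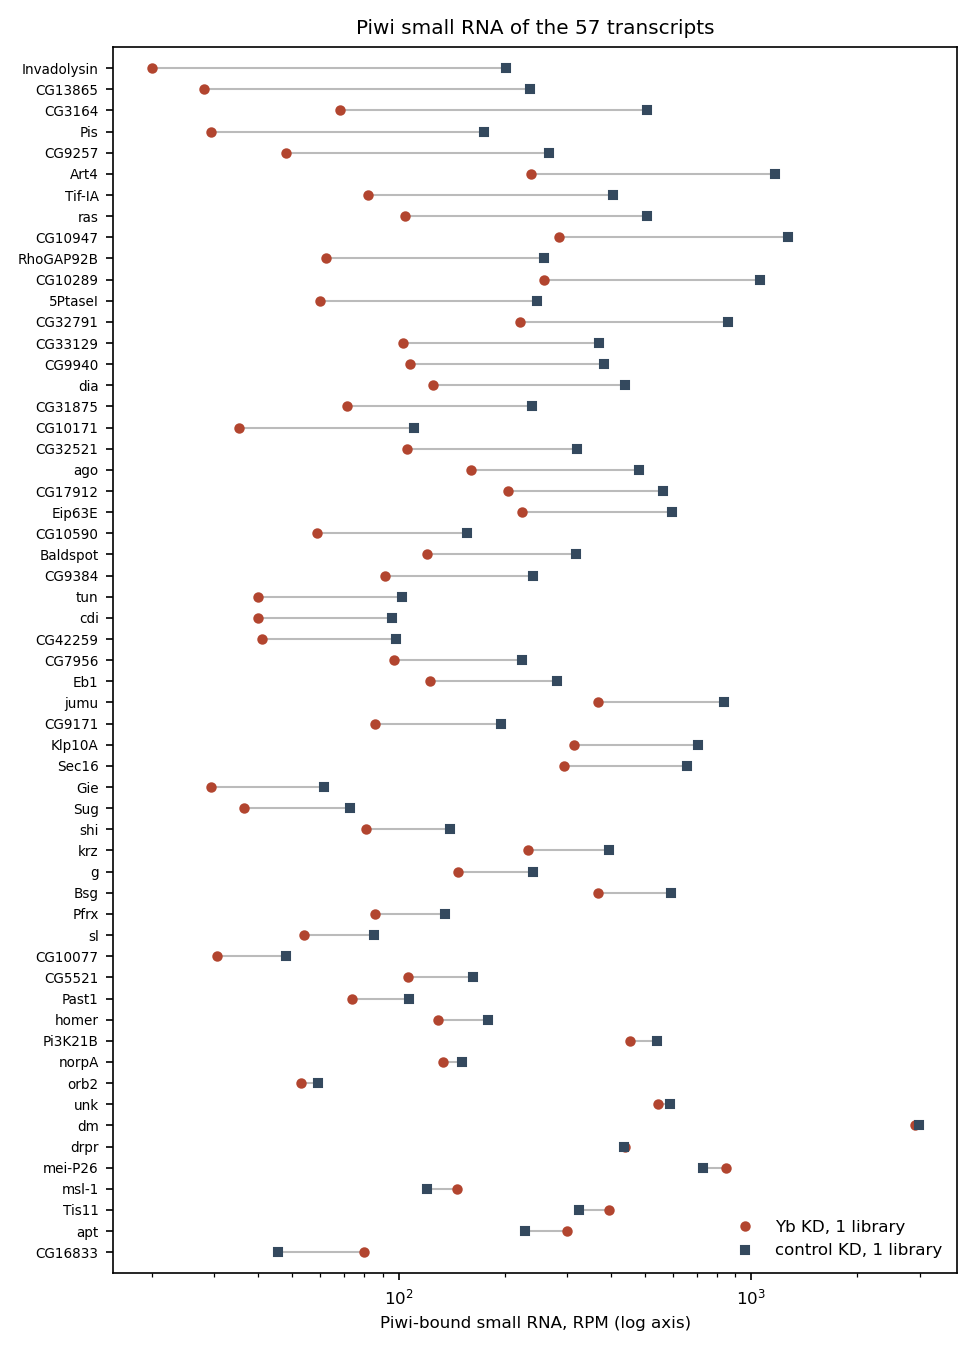
Piwi-bound small RNA in RPM (log axis) of each of the 57 transcripts in the Yb KD library (red circles) and the control KD library (dark squares), 1 library each, ordered by log2 ratio with the lowest on top. The circle lies left of the square in 51 rows, and Invadolysin, with 19.9 RPM in Yb KD and 202 RPM in control KD, has the widest gap.

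The Myc-Armi columns show what the 57 transcripts did when Armi carried the substitution D862A or R949A. Both mutants are set against the same WT column, so their values are given side by side and neither bears on the other. The 57 took 2.84% of the reads with D862A and 3.02% with R949A, against 8.92% with WT Myc-Armi, and the other High transcripts took 19.0% and 19.3% against 31.0%. The share of the 57 was thus 3.14-fold lower with D862A and 2.95-fold lower with R949A, and that of the other High transcripts 1.64-fold and 1.61-fold lower. In RPM as deposited, 53 of the 57 were lower with D862A and 24 at least 2-fold lower, where 13.3% and 4.23% of 4585 transcripts were. With R949A 49 were lower and 22 at least 2-fold lower, where 13.2% and 4.81% of 4473 transcripts were.

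CG32791, which encodes an immunoglobulin-domain protein of the cell surface, had the smallest ratios, at 56.7 RPM with D862A and 61.4 RPM with R949A, against 314 RPM with WT. That is 5.53-fold lower with D862A (4.88 to 6.29) and 5.11-fold lower with R949A (4.50 to 5.81). Invadolysin had 38.1 RPM with D862A and 57.4 RPM with R949A, against 191 RPM with WT. The sl transcript had 126 RPM with D862A and 130 RPM with R949A, against 489 RPM with WT. CG7956, with 39.7 and 37.0 RPM against 153 RPM, was among the 6 lowest with both mutants, as were these 3. CG9940 (155 RPM with D862A) and ras (169 RPM) completed the 6 lowest with D862A, and CG31875 (21.8 RPM with R949A) and CG10171 (50.4 RPM) those with R949A.

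No RNA-binding gene reached a 2-fold drop here either, where 24 of the 57 did with D862A and 22 with R949A. Their log2 ratios ran from −0.83 for unk to −0.24 for orb2 with D862A and from −0.85 to −0.19 with R949A. All 5 phosphoinositide enzymes were lower with both mutants, as were 53 of the 57 with D862A and 49 with R949A. The norpA transcript had 95.3 RPM with D862A and 114 RPM with R949A, against 317 RPM with WT. Of the cytoskeletal genes Eb1 had the smallest difference, at 475 RPM with D862A and 614 RPM with R949A, against 543 RPM with WT. The dm transcript had 2983 RPM with D862A and 3134 RPM with R949A, against 3572 RPM with WT.

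More signal with D862A was seen for 4 transcripts and with R949A for 8. CG10077 had 33.5 RPM with D862A and 36.1 RPM with R949A, against 7.47 RPM with WT, which rests on 19 WT reads (4.48-fold higher with D862A, 2.80 to 7.60). It was the 1 transcript of the 57 that was not at least 2-fold below the table median. Of the 167 other High transcripts 124 were that far below it with D862A and 125 with R949A. Of all transcripts 26.3% and 25.3% were. That median was 3.31-fold higher with D862A and 3.19-fold higher with R949A. The apt transcript had 384 and 443 RPM against 289 RPM, Past1, an endocytic EHD-family protein, 102 and 125 RPM against 84.9 RPM, and Bsg, the immunoglobulin-family membrane protein Basigin, 1502 and 1744 RPM against 1463 RPM. With R949A drpr, Eb1, CG16833 and cdi also had more, the last at 197 RPM against 186 RPM with WT.

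Set directly against each other, D862A and R949A lay close: the median log2 ratio of D862A to R949A was −0.08 over the 57, with 39 lower and 18 higher, and all 57 lay within 2-fold of each other. The extremes were Sug (5.42 RPM with D862A, 10.4 RPM with R949A, −0.82) and CG31875 (33.2 and 21.8 RPM, 0.59). The median was −0.03 for the other High transcripts and 0.02 for 4963 transcripts with at least 5 RPM. These columns have no replicates, so differences of this size could not be tested.

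**Figure D4:**
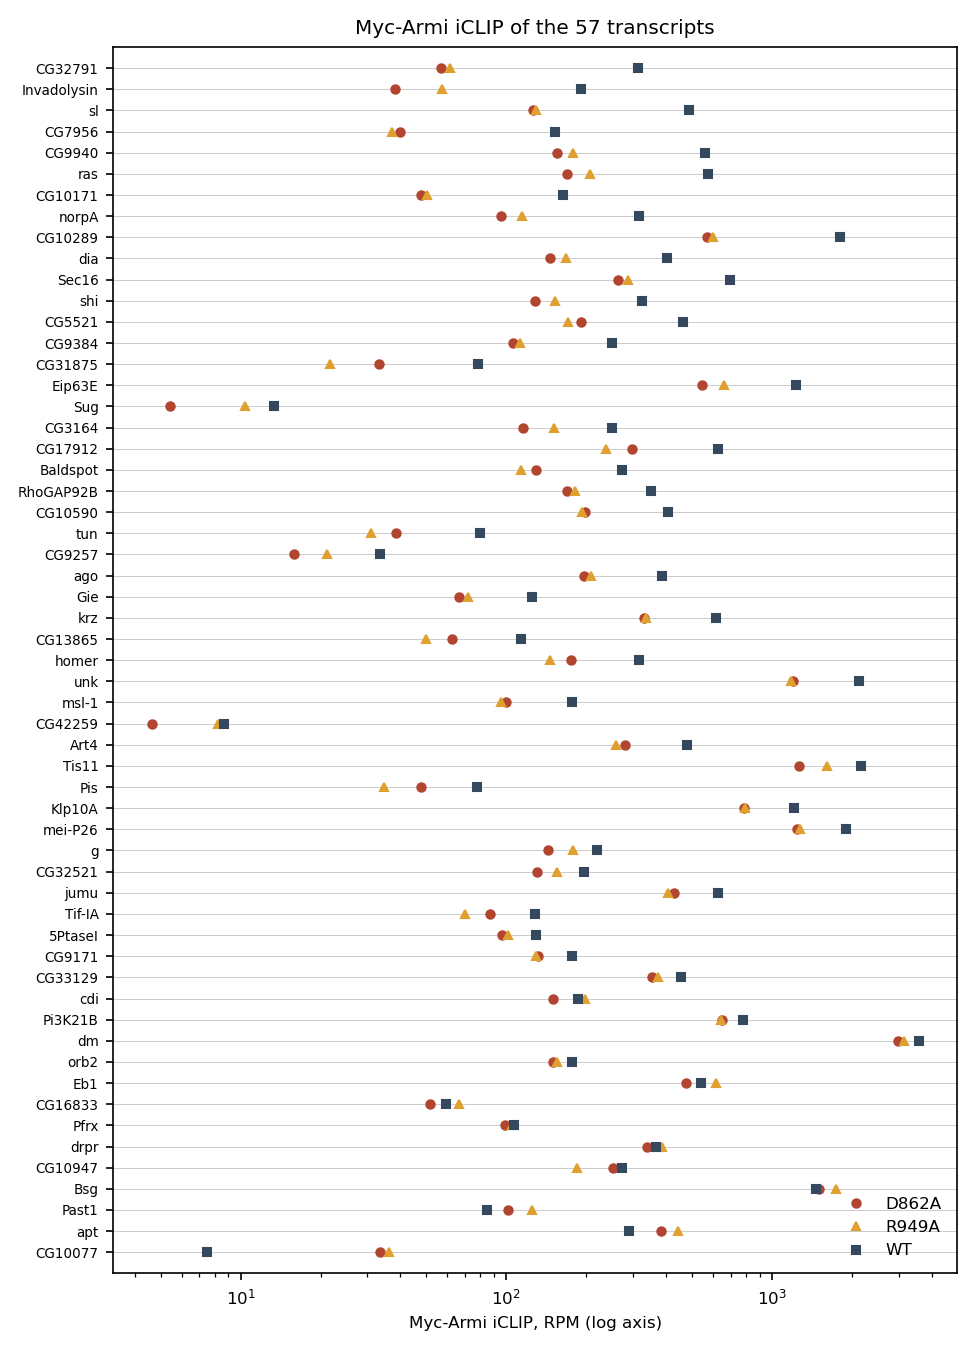
Myc-Armi iCLIP signal in RPM (log axis) of each of the 57 transcripts with D862A (red circles), R949A (yellow triangles) and WT (dark squares), ordered by the log2 ratio of D862A to WT with the lowest on top. Each condition has 1 column, while the labels list 2 libraries for it. Circles and triangles lie close together, and only CG10077 has a wide gap with the square on the left.

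The order of the 57 differed between assays. Over the 57 transcripts Spearman's rho between the log2 ratios was −0.23 for Piwi Yb KD and Zuc KD, 0.06 for D862A and Zuc KD and 0.39 for Piwi Yb KD and D862A. These values describe 57 chosen transcripts that share libraries and depth and are not replicates. Invadolysin and Pis, among the 6 lowest of Piwi Yb KD, did not pass in Zuc KD, and unk and Pi3K21B, among the 8 largest falls in Zuc KD, had Piwi log2 ratios of −0.12 and −0.26. Other transcripts were low in both: Tif-IA and CG9940, also among those 8, had Piwi log2 ratios of −2.29 and −1.81.

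**Figure D5:**
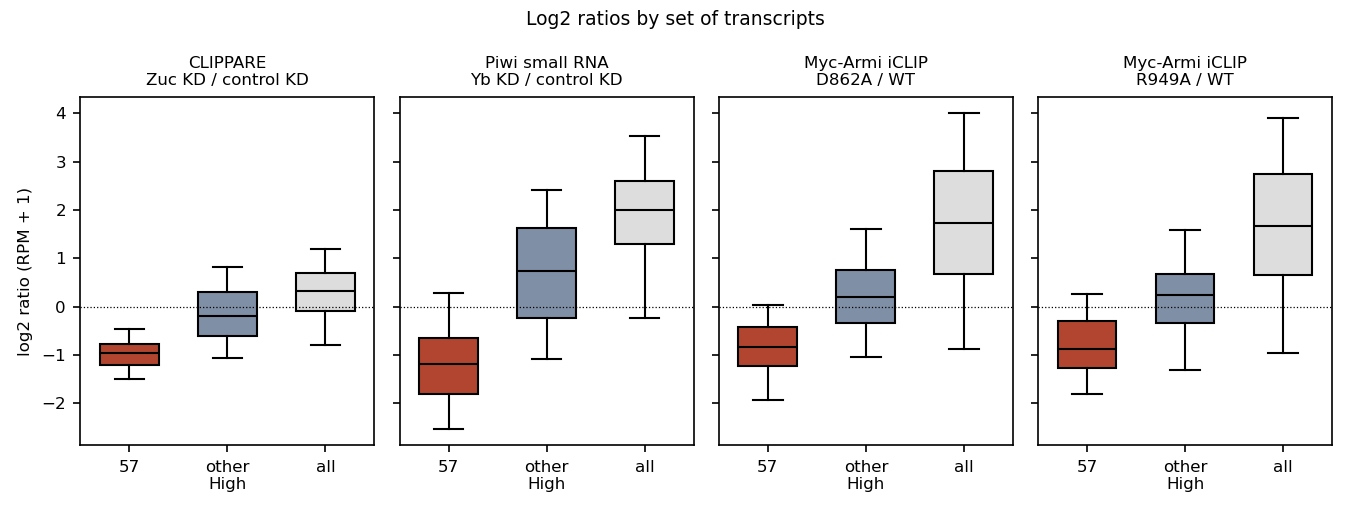
Log2 ratios on the RPM + 1 scale for the 57 transcripts (red), the 167 other High transcripts (grey-blue) and all transcripts that average 5 RPM or more (light grey) in 4 comparisons; boxes span the quartiles with the median as a line, and whiskers the 5th to 95th percentiles. The medians of the 57 were −0.96 in Zuc KD, −1.19 in Piwi Yb KD, −0.84 with D862A and −0.87 with R949A, each below those of the other sets.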

How the data were processed

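The authors deposited RPM for each FlyBase transcript. Per the submitters' processing notes the authors used cutadapt, STAR and dm6; versions, the counting step, strand, duplicates and multiple hits are not given in the sources used here, so reads of overlapping or near-identical genes cannot be assigned with certainty. Locus names such as 2RHet do not occur in dm6, so the assembly behind the loci is uncertain. No coordinates are given, and the chromosome arms, gene spans and gaps above rest on these loci.

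In all 14 columns 100% of RPM values were whole multiples of 1 step (tolerance 0.1 read), which gave the reads used for intervals, edgeR 4.0.16 and DESeq2 1.42.0. After 107 repeated lines were dropped, 12013 transcripts with a symbol were left, of 13929. Zuc KD was fitted on log2(RPM + 1) by limma 3.58.1 (eBayes with trend, R 4.3.3, adjusted p of 0.05, two-sided) over 4006 transcripts averaging 5 RPM or more, tested on simulated data. limma planned for Myc-Armi could not be run on 1 column per condition. Ratio intervals are exact conditional binomial at 95%. Named were the 8 transcripts of most untreated Armi reads, the 6 lowest and 6 highest ratios per comparison at 20 RPM or more, the 8 largest Zuc KD falls and those around the threshold; other names illustrate role groups and were chosen after their values were seen. The members, lists and rules were chosen with earlier results of these data known. Deviations of same-numbered CLIPPARE libraries from their group means had a correlation of 0.05. With 2 libraries per group this cannot show whether they were paired, and the labels give no pairing. Alternatives were pseudocounts, filters, centring, trend, tools, a replicate block, left-out libraries and thresholds. Other tools were scipy 1.17.1, pandas 2.3.3 and numpy 2.4.6 in Python 3.11.15, with figures from matplotlib 3.10.9.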

Additional observations from a re-analysis of the deposited data

How the results depend on the processing

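For Zuc KD 111 transcripts were called lower and 471 higher, and 23 of the 57 were lower. These 3 counts were 1, 44 and 0 with no filter (28 of the 57 at an unadjusted p of 0.05), 58, 153 and 17 with a filter of 20 RPM, 570, 379 and 54 with libraries centred on their median, 549, 452 and 55 with edgeR, and 436, 233 and 54 with DESeq2. With the replicate number as a block they were 92, 453 and 14; the labels give no pairing. Leaving out each library in turn gave 0 to 634 lower, 17 to 1784 higher and 0 to 57 of the 57, with median changes from −1.46 to −0.59, against −0.96 with all libraries. With centring as well, a setting chosen after seeing the data, these values were 117, 45, 16 and −1.26 without Zuc KD replicate 1, 120, 62, 20 and −1.33 without Zuc KD replicate 2, 848, 647, 57 and −1.56 when control KD replicate 1 was left out, and 788, 600, 56 and −1.16 when control KD replicate 2 was. The median was −1.29 with centring, −1.30 with edgeR and −1.35 with DESeq2. Centring and the count tools remove the shift of whole libraries, here a median of 0.33; the cause of that shift was not tested. Among 30 transcripts below a threshold of −2, 10 fell. The 8 largest falls were picked from these data, and for each both Zuc KD libraries lay below both control KD libraries. Leaving out a library could thus not reverse their direction, and none of the other settings did. Their unchanged direction is therefore no separate support. All 8 missed the threshold with no filter, and Pi3K21B also with the replicate block.

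Relative to the median of all transcripts, the median of the 57 was −3.20 in Piwi Yb KD, −2.57 with D862A, −2.54 with R949A and 0.70 for untreated Piwi against Armi. With thresholds of −1 (89 transcripts) and −2 the Piwi Yb KD median was −1.05 and −1.68, that of D862A −0.75 and −1.08, and that of R949A −0.63 and −1.11, and the Piwi to Armi median was −0.31 at −2. Pseudocounts of 0.1 and 5 RPM gave −0.86 and −0.82 for D862A, and 5 RPM gave −0.85 for R949A. Variation between libraries cannot be measured in the comparisons without replicates, and depth limits single transcripts there, such as CG10077 (19 WT reads) and Invadolysin (17 reads in Yb KD).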
